A study of Mus musculus with 8 samples.

Results

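Slco2b1, Slc10a6, Slc24a3 and Nipal1 encode transporters of the plasma membrane or of internal membranes. They were chosen as bile acid, organic anion, sodium-calcium and magnesium transporters whose transcripts were higher with corticosterone in these same arrays. The 4 genes are read by 7 probe sets, out of 18193 named genes and 45101 probe sets on the array. Because the rise with the hormone chose them, that rise is described here without a test. The differences between genotypes were not part of the choice, although the same arrays entered both.

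The cells were macrophages that thioglycolate had drawn into the peritoneal cavity of male C57BL6/J mice, collected 4 days after a 3% injection, selected by adherence, and kept for 24 h with or without 1 µM corticosterone, the main glucocorticoid of mice. Control cells carried MR fl / fl, the floxed mineralocorticoid receptor gene Nr3c2. Knockout cells carried MR fl / fl with LysM cre, which deletes the floxed gene in cells that express lysozyme M, so both genotypes share the floxed allele and only the knockout carries the recombinase. The 4 groups (control or knockout, without hormone or with corticosterone) had 2 arrays each. The sources used here do not give ages or numbers of mice. Every sample pooled material from triplicate experiments, so the p-values reflect only how far these samples lie apart, which can be technical. All values are log2 expression levels after RMA, a method that removes background, gives all arrays the same distribution and summarises the probes of a set. A difference of 1 is therefore a doubling, levels are relative within an array, and levels of different probe sets were not compared with each other.

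Control untreated replicate 2 stood apart from the other 7 arrays. Its median correlation with them was 0.919, against 0.994 to 0.995 for the rest. The macrophage markers averaged 11.52 on it against 12.06 to 12.27 elsewhere, and the mesothelial and fibroblast list 8.65 against 6.86 to 7.30. Of that list, Col1a1, Col1a2, Col3a1, Pdgfra, Dcn, Lum and Wt1 were highest on this array. Msln (3.82), Upk3b (5.36), Krt19 (5.11) and Krt8 (5.89) were not. As RNA breaks, control probe sets at the 3′ end read higher than those at the 5′ end, and this gap was 2.18 for Actb against 0.41 to 0.62, and 1.84 for Gapdh against 0.65 to 0.79. Fits are therefore given without this array (7 arrays), with the value from all 8 arrays beside them. With 7 arrays the control untreated group is 1 array, taken to vary as much as arrays of the other groups do. Of the 10 macrophage markers, Csf1r (13.52 to 13.59), Lyz2 (13.58 to 13.78) and Cd68 (13.42 to 13.72) each kept to a narrow range over the 8 arrays. Mrc1 (11.36 to 11.68) spread somewhat more. Itgam (7.42 to 9.08), Mertk (9.91 to 11.87) and Cybb (11.38 to 12.53) spread widely, so the steady transcripts do not stand for the whole list. Nr3c2, the targeted gene, read 6.39 and 8.46 in untreated control cells, 6.39 and 6.13 in control cells with corticosterone, 5.54 and 5.82 in untreated knockout cells, and 5.11 and 5.47 in knockout cells with corticosterone. All 4 knockout arrays lay below all 4 control arrays, and with 7 arrays the difference passed the test with corticosterone (-0.97, SE 0.176, limma adjusted p = 0.0290) but not without (-0.71, adjusted p = 0.161); with 8 arrays both missed it (adjusted p = 1 and 0.486).

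The transporters differ in what they move and in what drives them. Slco2b1 (OATP2B1) is an organic anion transporting polypeptide, a carrier that takes up steroid sulfates, thyroid hormones and many drugs without using the sodium gradient. Slc10a6 (SOAT) belongs to the bile acid transporter family, and takes up sulfated steroids together with sodium, while the common bile acids are poor substrates. Slc24a3 (NCKX3) exports calcium in exchange for sodium and carries potassium out with it. Nipal1 (NIPA3) is a magnesium transporter of the NIPA family. Glucocorticoids act mainly through the glucocorticoid receptor, encoded by Nr3c1, which binds paired half-sites in DNA, and corticosterone also binds the mineralocorticoid receptor, which recognises the same element. In macrophages, glucocorticoids restrain inflammatory genes and favour the clearance of dying cells.

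All 4 genes were found in the RefSeq promoter table of mouse build GRCm38.p6. The window read here covers the 250 bases before an annotated start, and Slco2b1 has 3 such windows, Slc24a3 has 2, and Slc10a6 and Nipal1 have 1 each. The receptor half-site AGAACA was searched on both strands, where the opposite strand reads TGTTCT. It occurred in 16.1% of the 32851 promoter windows of the table. Among the transporters it lay once in the Slc10a6 window, beginning 164 bases before the start, and once in the window of the third Slco2b1 start, on the opposite strand and 96 bases before it. The first 2 Slco2b1 windows, both Slc24a3 windows and the Nipal1 window did not hold these letters. Of the 12 defined letters of the paired consensus glucocorticoid response element, the best stretch in the Slc10a6 window matched 10, which 1.56% of all windows reach, and it begins with the half-site. The best stretch in the third Slco2b1 window matched 9 (12.35% of windows reach 9). Those in the first and second Slco2b1 windows matched 7 and 8, and 51.36% of windows reach 8. The best stretches at the first Slc24a3 start and at Nipal1 matched 7 each, which 91.83% of windows reach, and that at the second Slc24a3 start matched 6. A match is a description of the letters and not a binding site. The windows differ in base composition, with 80.8% G and C and 35 CG pairs at the first Slc24a3 start, 61.2% at Nipal1, 52.8% at the third Slco2b1 start and 49.2% at Slc10a6, against a median of 52.4% over the table. The window of the single or first annotated start is printed for 3 genes, and for Slco2b1 that of the third start, because it holds the half-site. They are at chr5:103629404-103629653 on the minus strand for Slc10a6, chr7:99695810-99696059 on the minus strand for Slco2b1, chr2:145167525-145167774 on the plus strand for Slc24a3 and chr5:72647546-72647795 on the plus strand for Nipal1. Each is written 5′ to 3′ along the gene, with the half-site in capitals where there is one.
Slc10a6: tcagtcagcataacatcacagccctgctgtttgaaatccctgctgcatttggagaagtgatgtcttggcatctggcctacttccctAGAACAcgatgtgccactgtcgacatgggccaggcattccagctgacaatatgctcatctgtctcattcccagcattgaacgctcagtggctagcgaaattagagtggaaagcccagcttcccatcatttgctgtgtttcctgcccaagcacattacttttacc
Slco2b1: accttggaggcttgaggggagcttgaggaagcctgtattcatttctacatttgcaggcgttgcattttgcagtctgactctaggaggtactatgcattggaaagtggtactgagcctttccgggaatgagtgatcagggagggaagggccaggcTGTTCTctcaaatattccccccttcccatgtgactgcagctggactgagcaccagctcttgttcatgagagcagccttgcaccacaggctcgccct
Slc24a3: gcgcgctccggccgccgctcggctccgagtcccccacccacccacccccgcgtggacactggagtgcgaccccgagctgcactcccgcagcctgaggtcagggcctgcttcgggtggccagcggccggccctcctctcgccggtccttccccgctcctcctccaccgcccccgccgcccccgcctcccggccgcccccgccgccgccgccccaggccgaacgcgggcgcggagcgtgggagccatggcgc
Nipal1: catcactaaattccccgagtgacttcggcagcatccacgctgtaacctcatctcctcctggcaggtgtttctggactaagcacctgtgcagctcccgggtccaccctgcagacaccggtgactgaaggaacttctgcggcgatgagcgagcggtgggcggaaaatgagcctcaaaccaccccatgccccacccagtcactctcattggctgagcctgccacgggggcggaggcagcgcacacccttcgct

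Corticosterone accompanied higher transcript levels of all 4 transporters in both genotypes. On the 7 arrays the average of the rises in both genotypes was 3.18 log2 units for Nipal1, 2.48 for Slc10a6, 2.43 for Slc24a3 and 1.82 for Slco2b1. The genes were chosen on this rise, so it was not tested and nothing is read from its size. Nor is anything read from arrays with and without hormone that do not overlap.

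Slco2b1, the sodium-independent carrier, gave the smallest rise of the 4 in both genotypes with 7 arrays, and its replicates lay close together. With 8 arrays its control rise, 1.79, was larger than that of Slc24a3, 1.70. Its brightest probe set, 1433933_s_at, read 7.97 and 7.99 in untreated control cells, 9.73 and 9.82 in control cells with corticosterone, 7.52 and 7.78 in untreated knockout cells, and 9.48 and 9.50 in knockout cells with corticosterone. All 4 arrays with hormone were above all 4 without it, and within each hormone state both knockout arrays were below both control arrays. The rise was 1.80 in control cells (1.79 with 8 arrays) and 1.84 in knockout cells, or 3.49-fold and 3.58-fold. The probe set 1454777_at read 6.97 and 7.11, 8.51 and 8.62, 6.65 and 6.81, and 8.19 and 8.18 in the same order of groups, the same pattern with a rise of 1.59 (1.52 with 8 arrays) and 1.45. The third probe set, 1458171_at, stayed between 3.85 and 4.21 on all 8 arrays, and its rise was 0.02 (0.16 with 8 arrays) and 0.07. The probe sets of Slco2b1 therefore disagree, and the dimmest one did not show the rise. Averaged over the 3 probe sets, the rise was 1.14 in control and 1.12 in knockout cells.

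Slc10a6, the sodium-coupled carrier of sulfated steroids, has 1 probe set, 1428776_at. It read 5.95 and 4.61 in untreated control cells, 8.18 and 8.26 in control cells with corticosterone, 5.27 and 5.18 in untreated knockout cells, and 7.81 and 8.0 in knockout cells with corticosterone. The arrays with and without hormone did not overlap. The untreated control arrays lay 1 above and 1 below both untreated knockout arrays. The rise was 2.27 in control cells and 2.68 in knockout cells, or 4.83-fold and 6.41-fold. With control untreated replicate 2 included, the control rise was 2.94, or 7.68-fold, because that array read 1.34 below its replicate. Against that array alone it was 3.61.

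Slc24a3, the sodium, calcium and potassium exchanger, has 1 probe set, 1424308_at, and was the transporter whose untreated arrays differed most. It read 4.71 and 7.13 in untreated control cells, 7.65 and 7.60 in control cells with corticosterone, 5.96 and 5.34 in untreated knockout cells, and 7.59 and 7.63 in knockout cells with corticosterone. The 4 arrays with hormone lay between 7.59 and 7.65, whichever the genotype. The untreated arrays spread over 2.42 log2 units, with control untreated replicate 2 highest and its replicate lowest. The rise was 2.91 in control cells, 7.52-fold, and fell to 1.70, 3.25-fold, with 8 arrays. Against control untreated replicate 2 alone the control rise was 0.49. In knockout cells it was 1.96, or 3.88-fold. The lowest array with hormone was 0.47 above the highest without in control cells, and 1.62 above it in knockout cells.

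Nipal1, the magnesium transporter, gave the largest rise of the 4 in both genotypes. Its brightest probe set, 1456321_at, read 5.03 and 4.64 in untreated control cells, 8.03 and 7.94 in control cells with corticosterone, 4.56 and 4.72 in untreated knockout cells, and 8.06 and 8.01 in knockout cells with corticosterone. The arrays with hormone all lay near 8, and those without near 5 or below. The rise was 2.95 in control cells (3.15 with 8 arrays) and 3.40 in knockout cells, or 7.75-fold (8.88-fold) and 10.5-fold. The second probe set, 1453345_at, read 4.28 and 3.51, 7.63 and 7.66, 4.11 and 3.74, and 7.71 and 7.57 in the same order, a rise of 3.36 (3.75 with 8 arrays) and 3.72. Both probe sets of Nipal1 show the same pattern.

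**Figure D1:**
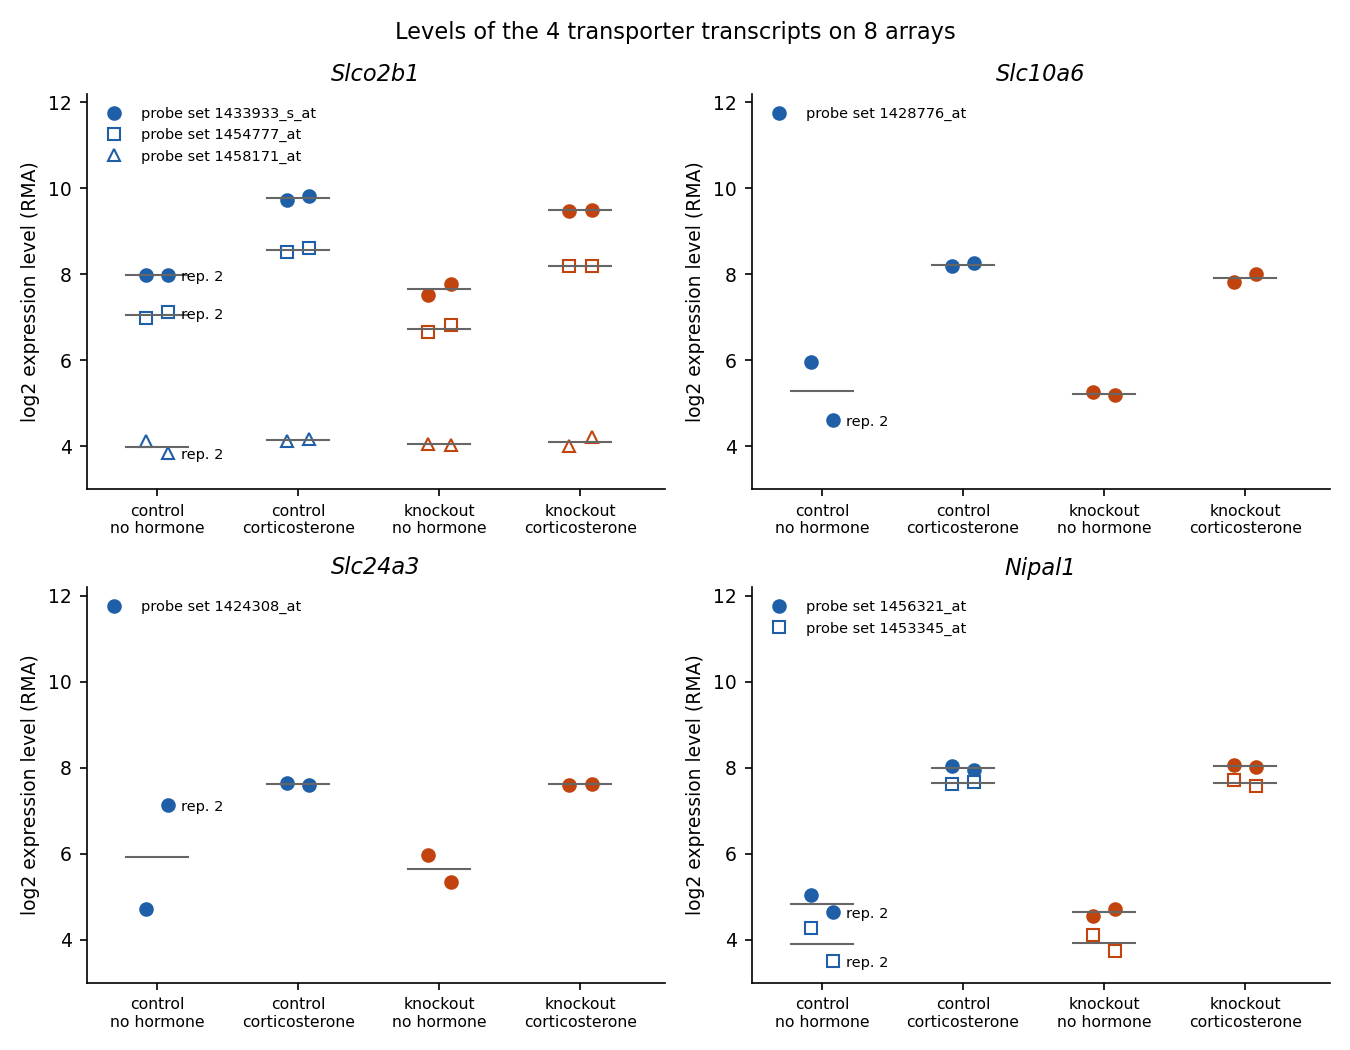
Log2 expression level (vertical axis) of each probe set of the 4 transporters on the 8 arrays, by group (horizontal axis); blue is control, red is knockout, each symbol is 1 array, short lines are group means, and "rep. 2" marks control untreated replicate 2. For Slc24a3 that array, at 7.13, lies far above its replicate at 4.71, and for Slc10a6 it lies below its replicate, at 4.61 against 5.95.

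Levels within a gene can be ordered by group. For Slco2b1 the order was control with hormone (9.77 ± 0.062), knockout with hormone (9.49 ± 0.015), untreated control (7.98 ± 0.0099) and untreated knockout (7.65 ± 0.18) (SD, n = 2 arrays each). For Slc10a6 the groups with hormone were at 8.22 ± 0.052 and 7.90 ± 0.13 (SD, n = 2), control above knockout, and the untreated groups at 5.28 ± 0.95 and 5.22 ± 0.065 differed by less than the spread of the control arrays. For Slc24a3 the groups with hormone, 7.62 ± 0.035 and 7.61 ± 0.032, and the untreated groups, 5.92 ± 1.71 and 5.65 ± 0.44 (SD, n = 2), each differed by less than their spread. For Nipal1 the groups with hormone were at 7.99 ± 0.068 and 8.04 ± 0.036, and the untreated groups at 4.84 ± 0.28 and 4.64 ± 0.11 (SD, n = 2). In both hormone states the genotypes differed by less than the SD of the control arrays, but by more than that of the knockout arrays.

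The transporters were compared between genotypes without hormone, with corticosterone, and in the size of the rise (the interaction). Without hormone, 1 of the 4 passed the test with 7 arrays, Slc10a6, at -0.73 in knockout cells (SE 0.139, 95% interval -1.04 to -0.41, limma adjusted p = 0.0326). In that comparison 1.99% of all genes were called. The call rests on control untreated replicate 1 alone in its group. With 8 arrays the difference was -0.06 (SE 0.432, adjusted p = 0.940), and with replicate 1 left out in place of replicate 2 it was 0.61, the other direction. The 7-array call was also lost when any one of control corticosterone replicates 1 and 2, knockout untreated replicate 2, or knockout corticosterone replicates 1 and 2 was left out as well (adjusted p from 0.051 to 0.114).

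Slc24a3 was 0.94 higher in untreated knockout cells with 7 arrays (SE 0.224, 95% interval 0.43 to 1.44, limma adjusted p = 0.0804), which missed the threshold. It passed when knockout untreated replicate 1 (0.63) or replicate 2 (1.25) was also left out. Each of these fits compares 1 untreated control array with 1 untreated knockout array. The sign turned with 8 arrays (-0.27, SE 0.755, adjusted p = 0.834), and with control untreated replicate 1 left out in place of replicate 2 (-1.48). Slco2b1 was lower in untreated knockout cells with 7 arrays (-0.32, SE 0.107, 95% interval -0.56 to -0.08, adjusted p = 0.200) and -0.33 (SE 0.147, adjusted p = 0.486) with 8. The difference was -0.45 when knockout untreated replicate 2 was also left out, and -0.34 when control untreated replicate 1 was left out in place of replicate 2. In at least 1 of the other settings tried the Slco2b1 difference passed the threshold, always with a single untreated control array. Nipal1 differed by -0.39 with 7 arrays (SE 0.144, 95% interval -0.72 to -0.07, adjusted p = 0.247) and by -0.20 with 8 (SE 0.206, adjusted p = 0.573). Before adjustment all 4 genes had p under 0.05 with 7 arrays, as did 2607 of all genes, and none of the 4 did with 8 arrays, where 807 of all genes did and limma called 0% of genes.

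With corticosterone, where both groups have 2 arrays in either fit, none of the 4 transporters passed limma's test. Unadjusted p was under 0.05 for 2 of them with 7 arrays, as for 1786 of all genes, and for 0 with 8 arrays, as for 229. The background was 1.63% of genes called with 7 arrays and 0% with 8. Slco2b1 was lower in knockout cells by -0.29 (SE 0.087, 95% interval -0.48 to -0.09, adjusted p = 0.236; 8 arrays adjusted p = 1). Slc10a6 differed by -0.32 (SE 0.113, 95% interval -0.57 to -0.06, adjusted p = 0.355; 8 arrays adjusted p = 1). Slc24a3 differed by -0.01 (95% interval -0.43 to 0.40, adjusted p = 0.989) and Nipal1 by 0.05 (95% interval -0.21 to 0.32, adjusted p = 0.941). Slco2b1 was the one transporter of the 4 whose knockout arrays lay below the control arrays in both hormone states, a pattern shared by 683 of 18193 genes (3.75%).

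For none of the 4 transporters did the difference in rise between genotypes pass limma's test, with 0.0165% of genes called with 7 arrays and 0% with 8. Slc24a3 had the largest difference, a rise 0.95 smaller in knockout cells (-0.95, SE 0.289, 95% interval -1.61 to -0.30, adjusted p = 0.813), and 0.26 larger with 8 arrays (SE 1.07, adjusted p = 0.913). For Slc10a6 it was 0.41 larger (SE 0.179, adjusted p = 0.853) and -0.26 with 8 arrays (SE 0.611, adjusted p = 0.840). For Nipal1 it was 0.44 larger (SE 0.186, adjusted p = 0.838; 0.25 with 8 arrays), and for Slco2b1 0.04 larger (SE 0.138, 95% interval -0.27 to 0.35, adjusted p = 0.990). Unadjusted p was under 0.05 for 3 of the 4 with 7 arrays, as for 1064 of all genes, and for 0 with 8 arrays, as for 199. With control untreated replicate 1 left out in place of replicate 2, the interactions were -0.93 for Slc10a6 and 1.46 for Slc24a3, with signs opposite to the 7-array fit. The interactions of these 2 genes passed the threshold in at least 1 of the other settings tried, always with a single untreated control array. The genotype differences of Slc10a6 and Slc24a3 in untreated cells, and of their rises, thus take their sign from which untreated control array is used.

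**Figure D2:**
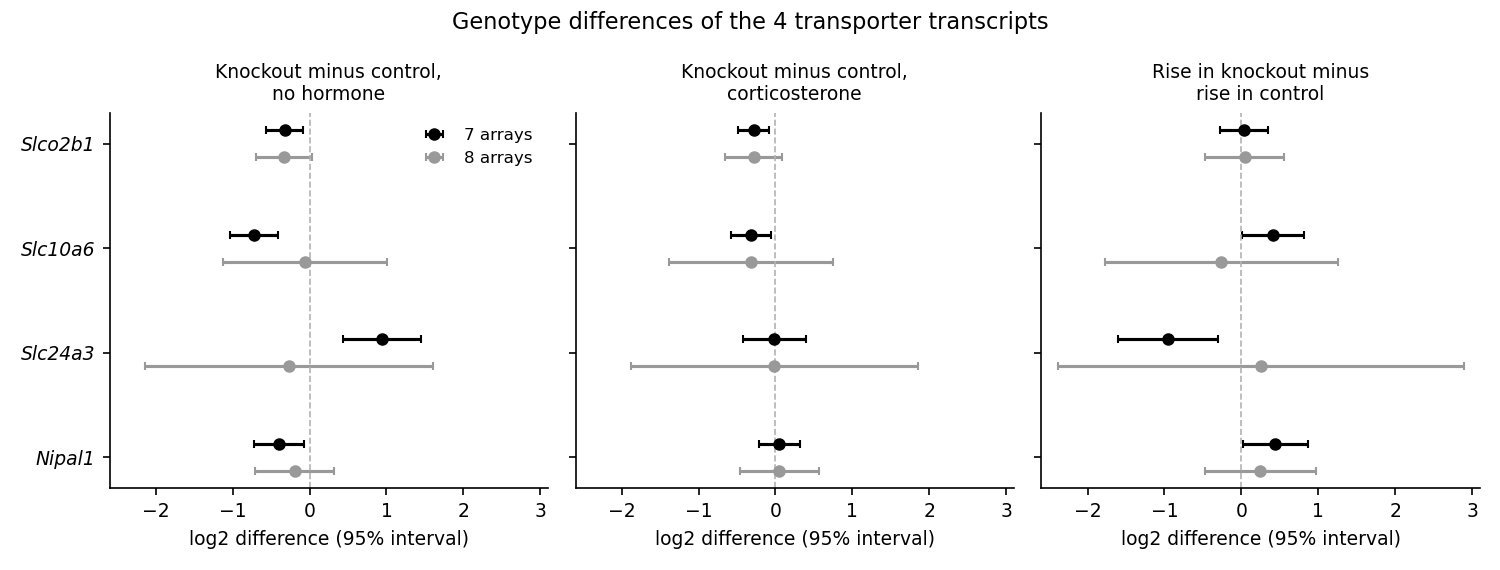
Differences between genotypes in log2 units (horizontal axis) for the 4 transporters (rows), without hormone, with corticosterone, and in the rise; points are limma estimates, bars are 95% intervals, black is 7 arrays and grey 8. For Slc24a3 without hormone the estimate is 0.94 with 7 arrays and -0.27 with 8, and for Slco2b1 it is -0.32 and -0.33.

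The relatives of the 4 transporters belong to the families from which the 4 were chosen for their rise. That they rise less than the 4 follows from this choice, and only their own change with corticosterone was tested. Over all genes, limma with 7 arrays called 4.85% higher and 5.95% lower with the hormone in control cells, and 5.75% higher and 7.95% lower in knockout cells, and with 8 arrays 0.137% and 0.11% higher in the same order. Of the 14 other SLCO carriers, limma with 7 arrays called 0 in control and 0 in knockout cells (unadjusted p under 0.05 for 0 and 2), with medians of 0.08 and 0.06 and a range of -0.29 to 0.52. Of the SLC10 family 4 of 6 were measured, with medians of -0.04 in both genotypes. Slc10a3 fell by 0.24 in knockout cells (adjusted p = 0.0215), and Slc10a1, the bile acid carrier of liver cells, gave 0.48 and 0.52 without passing (adjusted p = 0.158 and 0.0515). Of the SLC24 and SLC8 exchangers, 7 of 8 were measured (medians 0.15 and -0.05), and Slc8b1, the mitochondrial sodium-calcium exchanger, rose by 0.30 in control cells (adjusted p = 0.0339; 0.87 with 8 arrays) and 0.32 in knockout cells (adjusted p = 0.00697). Of the 5 other NIPA genes, 0 were called in either genotype (unadjusted p under 0.05 for 1 and 2), with medians of 0.00 and 0.12 and changes between -0.17 and 0.17. The median over all genes was 0.00 in control and -0.02 in knockout cells. With 8 arrays limma called no gene of these 4 families in any comparison (unadjusted p under 0.05 for 0 or 1 SLCO genes in each comparison, and for 0 genes of the other families).

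**Figure D3:**
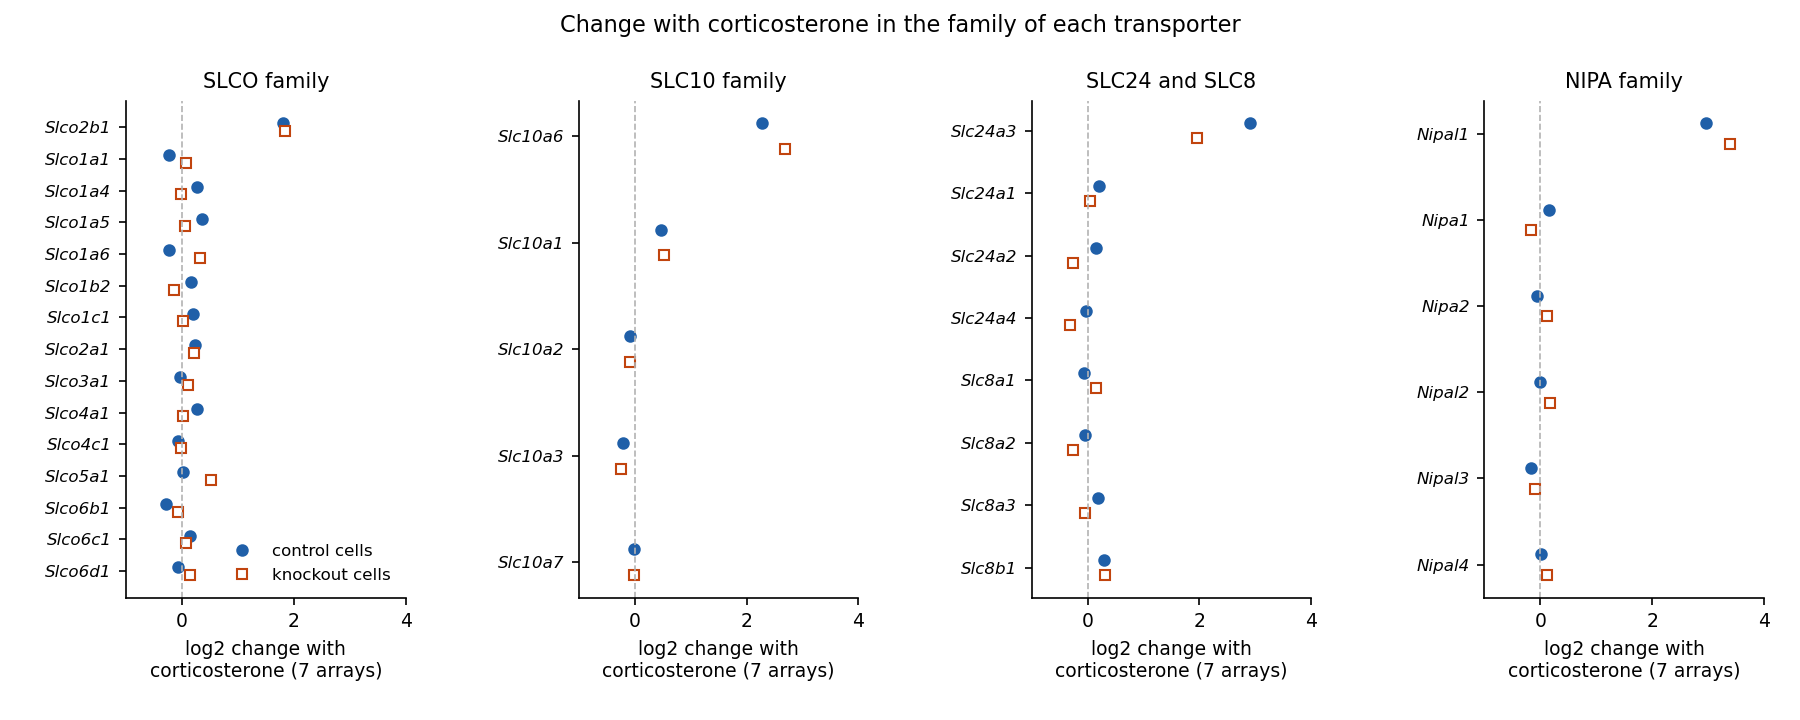
Log2 change with corticosterone on 7 arrays (horizontal axis) for each transporter, at the top, and every measured relative in its family (rows); filled circles are control cells, open squares knockout cells. The transporters, chosen for their rise, lie between 1.80 and 3.40. The relatives, which that choice left out, lie between -0.32 and 0.52.

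Other genes that handle the same ions and anions were counted by lists. Among 14 other genes of magnesium transport, 0 were called in control cells (unadjusted p under 0.05 for 3) and 2 fell in knockout cells, Cnnm4 by 0.41 and Tusc3 by 0.21. Cnnm4 and Tusc3 were named after their values were seen, since they were called in 1 genotype. Among 21 of 24 calcium pumps and channels, 2 fell in control and 4 in knockout cells and 0 rose. Atp2a3, which pumps calcium into the endoplasmic reticulum, fell by 0.54 and 0.44 (control, knockout), and Stim2, which senses calcium there, fell by 0.28 and 0.26. With 8 arrays the control change was 0.04 for Atp2a3 and -0.12 for Stim2. Among 13 of 16 genes of the sodium and potassium pumps and their regulators, 2 rose in both genotypes and 0 fell. Nedd4l, a ubiquitin ligase that removes sodium channels, rose by 0.59 and 0.37, and Atp1b1, a subunit of the sodium pump, rose by 1.18 and 0.51, but the control change of Atp1b1 was -0.39 with 8 arrays.

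Among 21 of 23 genes of steroid sulfate and bile acid handling, 1 rose and 4 fell in control cells, and 2 rose and 4 fell in knockout cells. Sult1a1, a sulfotransferase, rose by 3.16 and 3.41 (control, knockout). Ch25h, which makes 25-hydroxycholesterol, fell by 0.67 and 0.95, Papss2, which makes the sulfate donor, by 0.28 and 0.29, and Slc35b2, which carries that donor into the Golgi, by 0.26 and 0.31. With 8 arrays the control change was 0.15 for Ch25h and -0.63 for Papss2. Among 13 exporters driven by ATP, Abcc3 rose by 0.50 and 0.66 and Abcc1 fell by 0.47 and 0.49, and both export organic anions. With 8 arrays the control changes were 1.11 for Abcc3 and -0.21 for Abcc1. Among 12 of 14 SLC22 carriers, 0 were called in control cells (unadjusted p under 0.05 for 3) and Slc22a4 fell by 0.39 in knockout cells (chosen after its values were seen). With 8 arrays limma called no gene of these 6 lists in any comparison, and the number with unadjusted p under 0.05 was 0 to 3 in each list and comparison.

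Among the 368 genes whose symbols start with Slc, Slco or Nipa, the 4 transporters held the first 4 places in average rise, as a choice by rise would give. Nipal1 ranked 1 of 368 in each genotype (9 and 7 of all 18193 genes), and Slco2b1 ranked 4 in each (38 and 32 of all genes). With 8 arrays Slc24a3 ranked 8 and Slco2b1 5 in control cells. Slco2b1, at 1.82, is just inside, and Slc4a8 (1.16), Slc6a12 (1.03), Slc9a9 (0.83) and Slc45a3 (0.78) are just outside. Of the 364 others, 25 were called higher and 25 lower in control cells, 29 and 34 in knockout cells, and 22 and 21 in both, with medians of 0.01 and -0.02. Over all genes the numbers were 882 and 1082, 1046 and 1447, and 674 and 857.

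Slc4a8, a sodium-driven bicarbonate exchanger, rose by 1.18 and 1.13 (control, knockout), Slc6a12, a betaine and GABA carrier, by 1.01 and 1.05, and Slc9a9, an endosomal sodium-proton exchanger, by 0.97 and 0.69. Slc39a8, which imports zinc, rose by 0.68 and 0.61, and the amino acid carriers Slc43a2 (0.69 and 0.59) and Slc7a7 (0.63 and 0.54) rose too, as did the sugar carriers Slc45a3 (0.77 and 0.80) and Slc2a10 (0.76 and 0.62). Of those that fell, Slc2a6, a hexose carrier, fell by 1.67 and 1.53, Slc36a2, a proton-coupled amino acid carrier, by 0.98 and 1.34, and Slc7a11, the cystine and glutamate exchanger, by 0.89 and 0.80. Slc1a5, a neutral amino acid carrier, fell by 0.59 and 0.44, and Slc19a2, a thiamine carrier, by 0.61 and 0.48. Slc9a3r2, a scaffold protein that carries a solute carrier symbol, fell by 1.20 and 1.10. With 8 arrays the control change was 1.97 for Slc9a9, 1.13 for Slc7a7, 2.06 for Slc45a3, 0.18 for Slc2a10, -0.93 for Slc2a6, -0.61 for Slc36a2, -0.21 for Slc7a11, -0.16 for Slc1a5 and -0.97 for Slc19a2. In that fit limma called none of the 364 (unadjusted p under 0.05 for 34 in control and 24 in knockout cells).

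**Figure D4:**
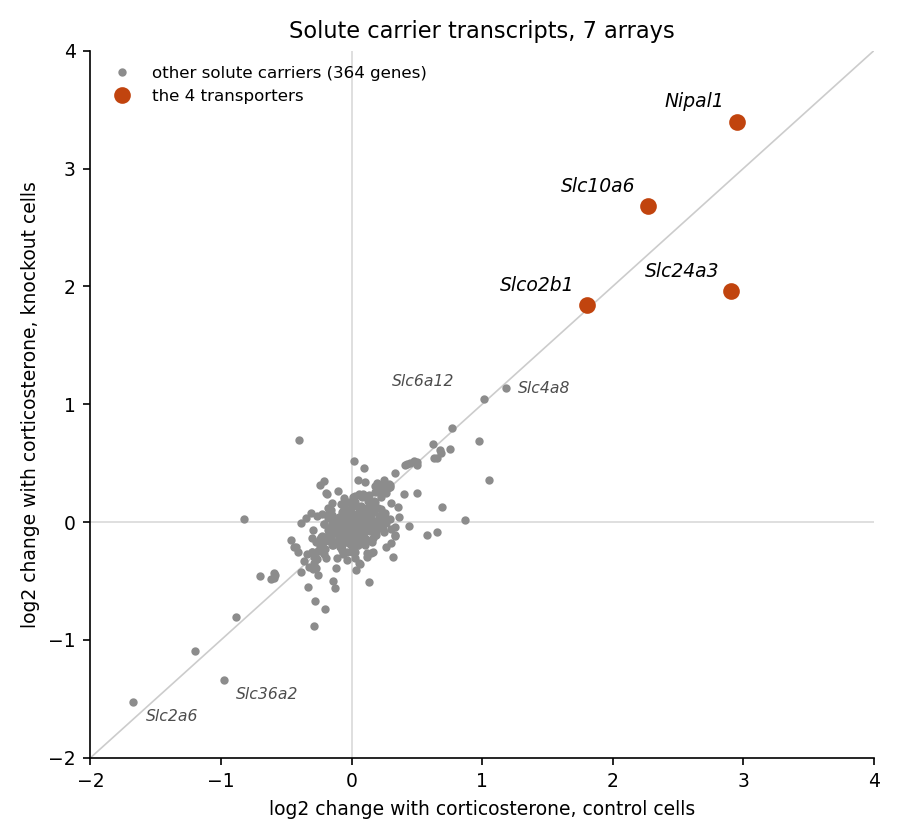
Log2 change with corticosterone on 7 arrays in control cells (horizontal axis) against knockout cells (vertical axis) for 368 genes with a solute carrier symbol; red points are the 4 transporters, grey points the 364 others, and the diagonal marks equal change. Slc4a8, the next gene, lies at 1.18 and 1.13, below the red points, which start at 1.80 and 1.84.

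Between genotypes, genes of these lists passed limma's test in few cases with 7 arrays, and in none with 8, where 15 of the 364 solute carriers had unadjusted p under 0.05 without hormone and 1 with it. In untreated cells the endosomal exchanger Slc9a9 was 0.49 higher in knockout cells (limma adjusted p = 0.00346), Slc40a1, the iron exporter, 0.78 higher (adjusted p = 0.00621), Slc4a5, a bicarbonate carrier, lower (-0.75, adjusted p = 0.0244), Atp1b1 0.61 higher (adjusted p = 0.0145), Atp2b4, a calcium pump of the plasma membrane, 1.01 higher (adjusted p = 0.0324), and Ch25h 0.87 higher (adjusted p = 0.0387). With corticosterone Slco3a1, a relative of Slco2b1, was 0.62 higher in knockout cells (SE 0.104, adjusted p = 0.0180; 8 arrays adjusted p = 1). Slco3a1 read 7.42 and 7.44 in control and 8.17 and 7.94 in knockout cells with hormone. In untreated control cells several of these genes read far apart on the 2 arrays, with Atp2b4 at 3.06 and 8.88, Slco3a1 at 7.46 and 10.01, and Atp1b1 at 8.18 and 11.32. With 8 arrays the untreated difference turned to -1.89 for Atp2b4, -0.96 for Atp1b1 and -0.13 for Slc40a1, and it kept its sign at 1.49 for Slc9a9, 1.69 for Ch25h and -0.45 for Slc4a5.

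The genes whose profiles were nearest to each transporter were found by the root mean square of the log2 differences over 7 arrays, after each gene's mean was taken off. This is a description of 7 arrays in 4 groups, in which any gene with a similar rise comes close. For Slco2b1 the nearest were Rnf150 (0.100), Fhit (0.123), Clec10a (0.171), Tsc22d3 (0.185) and Ankrd29 (0.197). For Slc10a6 they were Lcn2 (0.247), Tg (0.271), Gpr35 (0.308), Hhipl1 (0.324) and Lipg (0.356). For Slc24a3 they were Ms4a6c (0.271), Ang (0.278), Rnase4 (0.307), Arg1 (0.307) and Lipg (0.325), and for Nipal1 they were Sult1a1 (0.185), Ms4a6b (0.214), Cdo1 (0.274), Lyve1 (0.296) and Fkbp5 (0.326). Tsc22d3 encodes GILZ and Fkbp5 a co-chaperone of steroid receptors, both widely used as glucocorticoid target genes. Rnf150, the nearest to Slco2b1, was higher with hormone by 1.57 in control cells and by 1.78 in the knockout, and differed by -0.43 between untreated genotypes, beside 1.80, 1.84 and -0.32 for Slco2b1. Sult1a1, the nearest to Nipal1, rose by 3.16 and 3.41 beside 2.95 and 3.40.

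**Figure D5:**
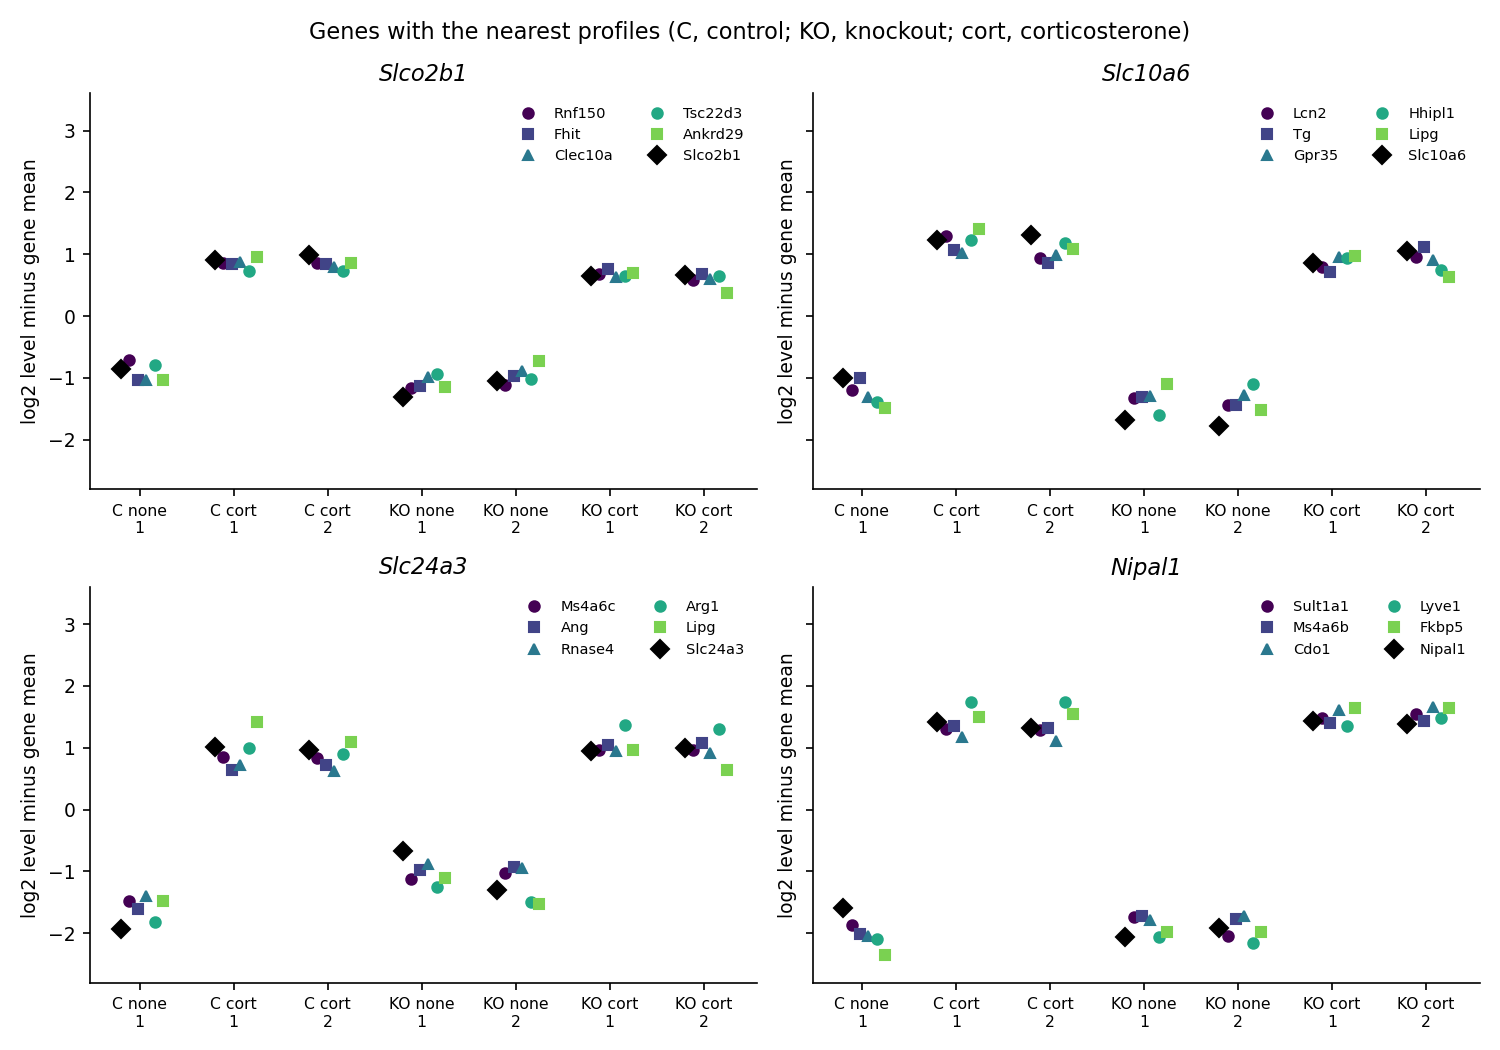
Log2 level minus the gene's mean (vertical axis) on 7 arrays (horizontal axis) for each transporter (black diamonds) and the 5 genes with the nearest profiles (coloured symbols); symbols of an array are set side by side. The root mean square difference of the nearest gene is 0.100 for Slco2b1 and 0.185 for Nipal1, and 0.247 for Slc10a6 and 0.271 for Slc24a3.

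Markers of other cells also differed with corticosterone, and their part in the transporters' rise was not tested. In bulk samples fewer cells of a type and less RNA per cell cannot be told apart. Of 8 B cell markers measured, 6 fell with the hormone in each genotype with 7 arrays, and their mean level was 6.84 on control untreated replicate 1, 7.0 and 7.12 in untreated knockout cells, and 5.96 to 6.09 on the 4 arrays with hormone. Of 10 T and NK cell markers 7 fell in each genotype, from 5.75 to 5.89 on the same untreated arrays to 4.69 to 4.83. Of 10 macrophage markers, 4 rose and 2 fell in each genotype, and the list's mean was 12.06 to 12.11 on the same untreated arrays and 12.24 to 12.27 with hormone. Mertk, a receptor for the uptake of dying cells that was named after its values were seen, rose by 1.69 and 1.71 (1.81 in control cells with 8 arrays), and Csf1r did not pass (-0.01 and 0.00, adjusted p = 0.932 and 0.976). Of 9 mast cell and basophil markers 3 rose and 1 fell in each genotype (5.48 to 5.66 without and 5.79 to 5.96 with hormone). Of 11 mesothelial and fibroblast markers 1 fell in control and 2 rose in knockout cells (6.95 to 6.96 without and 6.86 to 7.30 with hormone). These untreated ranges leave out control untreated replicate 2. On it the means were 6.17 for the B cell list, near the arrays with hormone, and 5.50 for T and NK cells. They were 11.52 for macrophages, 4.83 for mast cells and basophils, and 8.65 for the mesothelial and fibroblast list. That last mean was high through the fibroblast genes and Wt1, and not through Msln, Upk3b, Krt19 or Krt8. No marker reads 0 on this scale, which has no detection call.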

How the data were processed

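RNA from 8 samples was hybridised to Affymetrix mouse arrays. Each probe set has 1 log2 value per array in the deposited file, made by the authors with RMA in R 2.7, per the submitters' processing notes. Quantile normalization in RMA makes levels relative within an array and compresses low ones; detection calls were not used here. Of 45101 probe sets, 64 were controls, 34945 named 1 gene, 932 several and 9160 none. For 34741 the symbol was matched by identifier to the gene table of GRCm38.p6, and 204 kept an older one. Each gene was read by its brightest probe set over the 8 arrays (18193 genes, 9010 with more than 1 probe set).

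limma 3.58.1 in R 4.3.3 was fitted with 1 coefficient per group and a variance trend, and p-values were adjusted over all genes (Benjamini-Hochberg). A gene was called at an adjusted p under 0.05, whatever its fold. The 7-array fit left 3 residual degrees of freedom and the 8-array fit 4. Precision is limited by how few arrays there are.

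The members, gene lists, markers and tests were chosen with earlier results of these data known. Named genes are the 4 transporters, all genes of their families, the 3 genes per direction and list with the largest average change among those called in both genotypes, the 3 with the smallest p in each genotype comparison, the 8 per direction of the other solute carriers (5 by p between genotypes), and the 5 with the nearest profiles. Alternatives tried were all 8 arrays, each array left out, only the compared arrays, array weights, no variance trend, a replicate block, the mean of a gene's probe sets, every probe set, and dim genes left out.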

Additional observations from a re-analysis of the deposited data

How the results depend on the processing

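The number of genes called depended on control untreated replicate 2. With all 8 arrays limma called 31 genes for corticosterone in control cells and 27 in knockout cells, and 0 in both genotype comparisons and the interaction, against 1964, 2493, 362, 296 and 3 with 7 arrays. In the same order, no variance trend gave 853, 1289, 65, 86 and 0, and a replicate block with 8 arrays gave 6, 1, 0, 0 and 0. Only the compared arrays gave 0, 0 and 490 (corticosterone in control cells, genotype untreated, genotype with hormone), array weights gave 7, 0 and 0 (corticosterone in control cells, genotype untreated, interaction), every probe set gave 3057 and 4118 (corticosterone), a replicate block with 7 arrays gave 186 for genotype untreated, and the interaction gave 6 with dim genes left out and 6 with a crossed replicate block, which was chosen after seeing the data. Leaving out 1 array gave 1050 to 11678, 1479 to 2992, 183 to 11715, 94 to 476 and 2 to 10675.

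The rises kept their sign in each setting that gave a value. Slc10a6, Slc24a3 and Nipal1 have none with dim genes left out, since they fall among those genes, and the interaction has none with only the compared arrays. Of the tests, Slc10a6 untreated was not called with 8 arrays, only the compared arrays, array weights or a replicate block with 8 arrays (-0.056 each), with no variance trend (-0.73, adjusted p = 0.102) or with a replicate block and 7 arrays (-0.75, adjusted p = 0.0893), and its interaction became -0.26 with 8 arrays, array weights and the 8-array block. Slc24a3 untreated became -0.27 in the same 4 settings and passed with a crossed replicate block (1.06, adjusted p = 0.0252), and its interaction became 0.26 with 8 arrays, array weights and the 8-array block. Slco2b1 with hormone passed with only the compared arrays (-0.29, adjusted p = 0.0127), and averaging its probe sets gave an interaction of -0.018. Slco2b1 untreated, and the interactions of Slc10a6 and Slc24a3, each passed in at least 1 setting that left a single untreated control array. The settings that keep both untreated control arrays gave the same estimate wherever they gave one, so they are not separate checks of these differences. The causes were not tested.

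With 1 array left out, the untreated genotype differences spanned -0.45 to -0.19 for Slco2b1, -0.77 to 0.61 for Slc10a6, -1.48 to 1.25 for Slc24a3 and -0.47 to 0.00079 for Nipal1; with hormone they spanned -0.33 to -0.24, -0.41 to -0.22, -0.040 to 0.010 and 0.0027 to 0.10; the interactions spanned -0.091 to 0.17, -0.93 to 0.50, -1.27 to 1.46 and 0.05 to 0.52. Same-numbered replicates did not deviate together in every pair of groups (correlations from -0.292 to 0.397 over the 6 pairs of groups). Deviations from so few arrays cannot show whether the numbers pair the samples, and the labels do not say. With 2 arrays a group no single difference can be checked for an outlying array.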
